A study of Mus musculus with 4 samples.

Results

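Rif1 was read beside 9 genes whose products act with it or against it, in RNA-seq counts from cells labelled as derived from primordial germ cells of the mouse. The members were the rows of the deposited table whose Ensembl identifier maps to Rif1, to the protein phosphatase 1 (PP1) catalytic genes Ppp1ca, Ppp1cb and Ppp1cc, to Trp53bp1, Paxip1, Mad2l2, Shld1 and Shld2, or to Brca1. All 10 were found among the 53715 genes of the table, and all 10 passed the filter on low counts that left 15466 genes to be tested. The groups were 2 libraries with the genotype label Rif1-knock out (Rif1_KO below) and 2 labelled wild type (WT). Both came from E12.5 embryos on a C57BL/6 background, with cells enriched magnetically (MACS) and 1000 cells in each Smart-seq2 library. The sources used here give no knockout allele, no embryo sex and no enrichment marker, and they do not say that libraries with the same label came from different embryos. What a p-value sets a difference against here is the scatter of these libraries, and that scatter may be technical.

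RIF1 is a large chromatin protein with conserved docking motifs for PP1. It brings the phosphatase to replication origins, where PP1 opposes the DDK kinase that fires them, and so helps to set the time at which parts of the genome replicate. At DNA double-strand breaks RIF1 is recruited by phosphorylated 53BP1 and recruits shieldin, a complex that contains REV7 (encoded by Mad2l2), SHLD1, SHLD2 and SHLD3. Shieldin protects the ends from resection and favours end joining, while BRCA1 acts against this and favours resection and homologous recombination. PTIP, encoded by Paxip1, is a further effector that binds phosphorylated 53BP1. In mouse embryonic stem cells RIF1 also takes part in heterochromatin maintenance and in silencing retroviral elements.

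The 3 PP1 catalytic genes encode closely similar enzymes, so their coding sequences are shown first, as a measure of how well reads can be assigned to each. In the GENCODE M21 transcripts on GRCm38 the coding sequence of Ppp1ca was 77.4% identical to that of Ppp1cc and 75.0% to that of Ppp1cb, and Ppp1cb was 74.6% identical to Ppp1cc. The longest stretch without a difference was 44 bases, between Ppp1ca and Ppp1cc. The most alike 60 bases of the 3 genes are given below 5′ to 3′ on the plus strand, each within 1 coding exon, with capitals at the 8 positions where the genes are not all the same.
Ppp1ca (chr19:4194838-4194897, exon 6 of Ppp1ca-201): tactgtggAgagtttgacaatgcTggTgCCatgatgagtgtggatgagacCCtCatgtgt
Ppp1cb (chr5:32487637-32487696, exon 7 of Ppp1cb-201): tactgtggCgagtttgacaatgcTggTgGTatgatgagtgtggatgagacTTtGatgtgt
Ppp1cc (chr5:122173212-122173271, exon 6 of Ppp1cc-201): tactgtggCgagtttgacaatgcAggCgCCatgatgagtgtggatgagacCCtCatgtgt
All 3 genes shared 52 of the 60 bases. The end of the window lies within the 44 bases that Ppp1ca and Ppp1cc have in common, and a read confined to that stretch matches both of these genes. Ppp1cc has a closer copy, the processed pseudogene Ppp1ccb on chromosome 7. The first 941 coding bases of Ppp1cc were identical in it, so a read inside them matches both places. How many such reads the mapping quality limit of the counting removed was not tested. Ppp1ccb itself was given 38 and 54 counts in the libraries labelled Rif1_KO (where 2 values are given for a label, that of replicate 1 is first) and 55 and 26 in those labelled WT.

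The libraries held 12071903 and 14421298 counts under the label Rif1_KO and 12768932 and 11724630 under the label WT. Cell type markers differed between the libraries. Erythroid markers summed to 9886 and 4266 CPM (counts per 1000000, TMM-scaled) under the label Rif1_KO against 138700 and 113000 CPM under the label WT, and all 11 tested markers of 12 listed were lower under the label Rif1_KO, with Klf1 at 0 in Rif1_KO replicate 2. Stromal markers summed to 1621 and 1323 CPM under Rif1_KO against 540 and 398 CPM under WT, with 9 of 9 higher under the label Rif1_KO and Lum at 0 in WT replicate 2. Germ cell markers summed to 39.4 and 44.3 CPM under the label Rif1_KO, and to 58.1 and 475 CPM under the label WT. Of 14 germ cell markers 10 were tested, 1 without overlap higher and 2 lower under the label Rif1_KO. Of all tested genes, 21.0% were higher and 18.4% lower in that sense, and the germ cell counts are near these shares. The same shares stand beside the erythroid and stromal counts above. Mael was at 0 in Rif1_KO replicate 2. Dazl, Dppa3 and Ddx4 made up most of the sum in WT replicate 2, and single markers of the labelled cell type did not follow 1 order of libraries. Of the 14, 2 were highest in Rif1_KO replicate 1, 3 in Rif1_KO replicate 2, 3 in WT replicate 1 and 6 in WT replicate 2. Dazl, for an RNA-binding protein of germ cells, had 2.03 and 4.08 CPM under the label Rif1_KO, against 12.99 and 196 CPM under the label WT. Prdm14, for a transcription factor of germ cell specification, had 0.452 and 0.106 CPM (6 and 2 counts) under the label Rif1_KO, against 19.9 and 18.4 CPM under the label WT. Prdm1, for another such factor, had 0.904 and 17.7 CPM under the label Rif1_KO, against 0.276 and 0.323 CPM (3 and 3 counts) under the label WT. Supporting cell markers summed to 847 and 816 CPM under Rif1_KO against 836 and 695 CPM under WT, and endothelial markers to 72.1 and 151 CPM under Rif1_KO against 273 and 156 CPM under WT. Leukocyte markers summed to 2.79 and 3.97 CPM under Rif1_KO against 3.96 and 20.0 CPM under WT. Csf1r alone had 16.9 of the 20.0 CPM in WT replicate 2, and 2 of the 6 leukocyte markers were tested. The part of these differences in the results below was not tested. In bulk libraries such as these, fewer cells of a type and less RNA per cell cannot be told apart.

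Rif1 (ENSMUSG00000036202.16, chromosome 2, 52072832 to 52122383, plus strand, mm10) was the first gene examined, since the genotype label names it. It had 1144 and 1207 counts in the libraries labelled Rif1_KO, against 474 and 44 counts in those labelled WT. The levels were 86.2 and 63.9 CPM under the label Rif1_KO, against 43.7 and 4.73 CPM under the label WT. Both libraries labelled Rif1_KO were above both labelled WT, an order that 21.0% of all tested genes had. The Rif1 count was thus not lower under the knockout label, and libraries are named by their label here. If the labels were exchanged, every fold change given here would change sign; this was not tested. The lowest library, WT replicate 2, stood far from the rest, with a 95% Poisson interval of 3.44 to 6.35 CPM that covers counting error only. The 2 libraries labelled WT differed 9.23-fold and those labelled Rif1_KO 1.35-fold. On the log2(CPM + 1) scale the difference between the WT libraries was 2.96, larger than for 85.6% of all tested genes. The log2 fold change was 1.63 (SE 1.01), higher in 2 of 2 libraries, and did not pass edgeR's quasi-likelihood test (adjusted p = 0.717). It was 3.99 without WT replicate 1, where the edgeR adjusted p was 0.00248 in a fit that takes the lone library to vary like the others, and 0.78 without WT replicate 2. No other gene model of the table shares an exonic base with Rif1. The table gives 1 count per gene over all 10504 exonic bases, so reads of exons left by a deletion and reads of an intact transcript cannot be told apart.

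**Figure D1:**
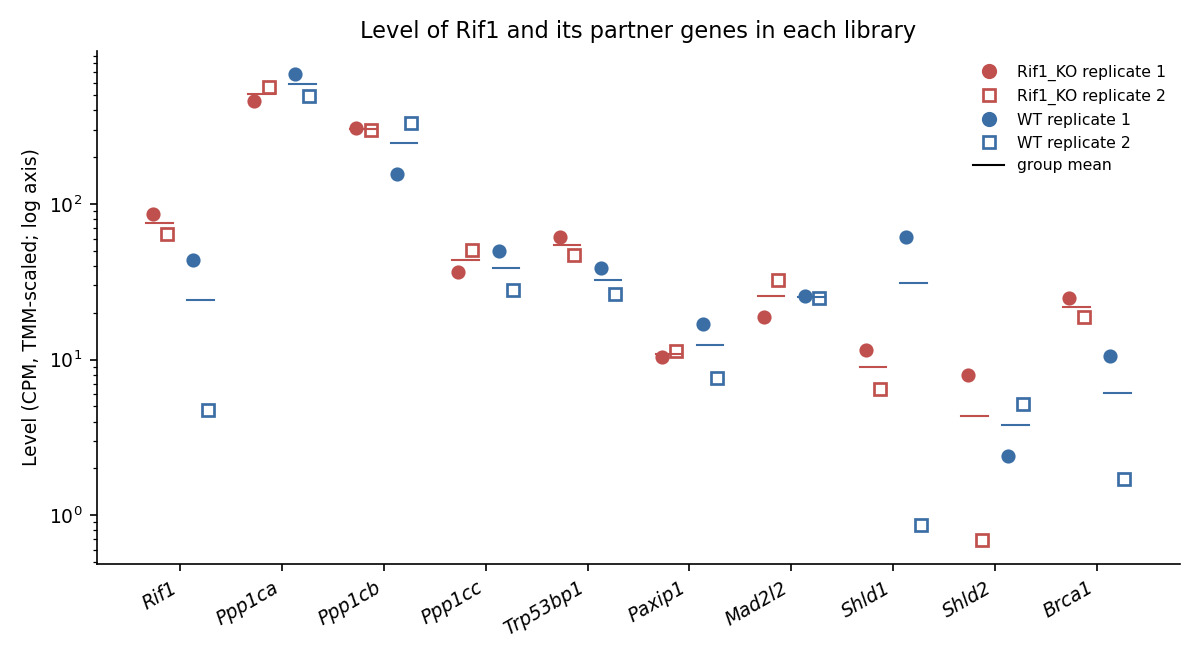
Level of each gene in each library, in TMM-scaled CPM on a log axis; filled circles are replicate 1, open squares replicate 2, red Rif1_KO and blue WT, and short lines are group means. Rif1, Trp53bp1 and Brca1 have both Rif1_KO libraries above both WT libraries, and Shld1 spans 0.860 to 61.7 CPM within WT.

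Ppp1ca, Ppp1cb and Ppp1cc encode the alpha, beta and gamma catalytic subunits of PP1, the phosphatase that RIF1 carries to origins. Ppp1ca (chromosome 19, 4192158 to 4195419) had 459 and 561 CPM under the label Rif1_KO, against 684 and 498 CPM under the label WT. Ppp1cb (chromosome 5, 32458843 to 32517433) had 308 and 301 CPM under the label Rif1_KO, against 157 and 334 CPM under the label WT. Ppp1cc (chromosome 5, 122158278 to 122175273) had 36.7 and 50.6 CPM under the label Rif1_KO, against 49.7 and 28.1 CPM under the label WT. The groups overlapped for all 3 genes, and WT replicate 1 was the highest library for Ppp1ca and the lowest for Ppp1cb. None passed the edgeR test. On the log2 scale the fold change was -0.21 (SE 0.30, edgeR adjusted p = 0.893) for Ppp1ca and 0.31 (SE 0.41, edgeR adjusted p = 0.886) for Ppp1cb. For Ppp1cc it was 0.17 (SE 0.70, edgeR adjusted p = 0.977). The sign of the small Ppp1ca value flipped with upper-quartile factors (0.06). It also depended on the library, from -0.42 without WT replicate 2 to 0.03 without WT replicate 1.

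Levels of different genes can be set side by side only per length, here CPM per kilobase of the exon length in the table. On that scale Ppp1ca averaged 370 ± 52.7 CPM per kb under the label Rif1_KO and 428 ± 95.4 under the label WT (SD, n = 2 each), the highest of the 10 genes under both labels. It made up 89.5% and 90.6% of the PP1 catalytic sum per length in the libraries labelled Rif1_KO, and 94.5% and 90.3% in those labelled WT. The share of Ppp1cb was 7.60% and 6.13% under the label Rif1_KO, and 2.74% and 7.65% under the label WT. Ppp1cc took 2.88% and 3.29% under the label Rif1_KO, and 2.77% and 2.05% under the label WT. Any loss of reads that also match Ppp1ccb would lower the Ppp1cc share. The size of such a loss was not tested. The order alpha, beta, gamma held in every library but WT replicate 1, where the gamma share was slightly above the beta share. The 3 genes together exceeded Rif1 per length 45.3-fold and 73.8-fold under the label Rif1_KO, and 126-fold and 888-fold under the label WT. The exon length counts every annotated exonic base of a gene once, 1379 for Ppp1ca, 10913 for Ppp1cb and 3424 for Ppp1cc, so a level per length is lower for a gene whose common transcripts leave many of them out. Ppp1ca shares 222 of its 1379 exonic bases with Rad9a on the opposite strand. Because counting ignored strand and counted a read for every gene it overlaps, part of the Ppp1ca count can be Rad9a reads. Rad9a had 1323 and 2261 counts under the label Rif1_KO and 2070 and 862 under the label WT, 18.6% to 27.9% of the Ppp1ca count in the same library. Ppp1cb shares 1908 of its 10913 exonic bases with Gm43312 on the same strand. Gm43312 had 4 and 42 counts under the label Rif1_KO and 11 and 2 under the label WT. Few Ppp1cb reads therefore lay in these bases, which still add to its length and lower its level and share.

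**Figure D2:**
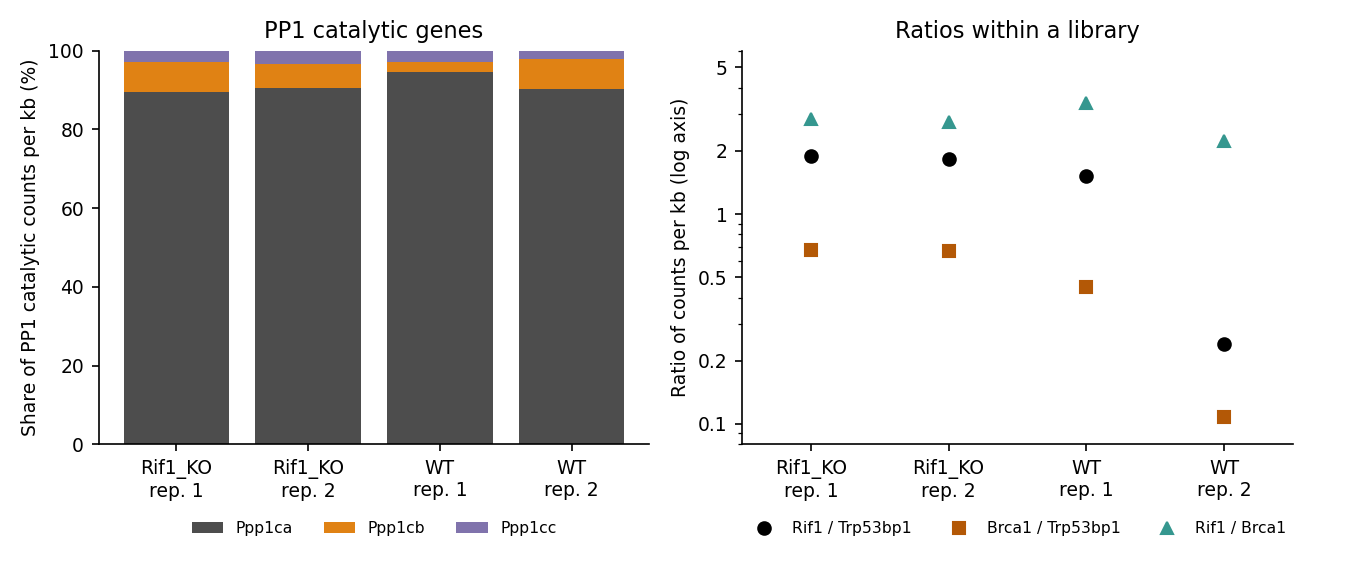
Left, share of each PP1 catalytic gene in their summed counts per kilobase, by library (bars from 0 to 100%). Right, ratios of counts per kilobase between Rif1, Brca1 and Trp53bp1 within a library, on a log axis; Rif1 to Brca1 stays between 2.23 and 3.38, while both are lowest relative to Trp53bp1 in WT replicate 2.

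Trp53bp1 encodes 53BP1, the chromatin reader that brings RIF1 to breaks. It had 813 and 893 counts (61.3 and 47.3 CPM) under the label Rif1_KO, against 422 and 246 counts (38.9 and 26.4 CPM) under the label WT. Both libraries labelled Rif1_KO were above both labelled WT, by a small margin. Its log2 fold change was 0.73 (SE 0.66), higher in 2 of 2 libraries, and was not called by edgeR (adjusted p = 0.817); it was 0.48 to 1.04 with 1 library left out. The gene lies on the minus strand of chromosome 2 (121193281 to 121271407) and shares 2130 of 14164 exonic bases with Tubgcp4 on the opposite strand. Tubgcp4 had 545 and 692 counts under the label Rif1_KO and 328 and 130 under the label WT. That is 52.85% to 77.73% of the Trp53bp1 count in the same library, so reads of that gene can add to the Trp53bp1 count. How many did was not tested, nor was the order of the labels without them.

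Paxip1 encodes PTIP, the other 53BP1 effector among the members. It had 10.3 and 11.3 CPM under the label Rif1_KO, against 17.04 and 7.63 CPM under the label WT. The libraries labelled Rif1_KO lay between those labelled WT. Its log2 fold change was -0.19 (SE 1.22) with an edgeR adjusted p of 0.986, and turned to 0.08 with upper-quartile factors and to 0.50 without WT replicate 1.

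Mad2l2 encodes REV7, the shieldin subunit that also serves DNA polymerase zeta in translesion synthesis and is needed for primordial germ cell development in the mouse. It had 249 and 613 counts (18.8 and 32.5 CPM) under the label Rif1_KO, against 278 and 233 counts (25.6 and 25.1 CPM) under the label WT. The WT libraries were nearly equal and lay between the others. By TMM factors the log2 fold change was 0.02 (SE 0.89) by edgeR (adjusted p = 0.998), with -0.07 by RLE factors. Of the 10 genes its libraries labelled WT differed least, by 0.03 on the log2(CPM + 1) scale, where the median of all tested genes was 0.89.

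The shieldin genes proper were uneven between libraries of 1 label. Shld1 encodes the subunit at the far end of the complex from REV7. It had 153 and 123 counts (11.5 and 6.51 CPM) under the label Rif1_KO, against 670 and 8 counts (61.7 and 0.860 CPM) under the label WT. WT replicate 1 was the highest library and WT replicate 2 the lowest, with both libraries labelled Rif1_KO between them. The 2 WT libraries differed 71.8-fold, and their difference of 5.08 on the log2(CPM + 1) scale was larger than for 98.9% of all tested genes. The 95% Poisson intervals were 57.1 to 66.6 CPM and 0.371 to 1.69 CPM, and they cover counting error of reads only, not the sampling of molecules before amplification. The log2 fold change of -1.79 (SE 1.70) was not called by edgeR (adjusted p = 0.827). It turned to 3.38 without WT replicate 1 (edgeR adjusted p = 0.258), and was -2.78 without WT replicate 2 (edgeR adjusted p = 0.0385). Limma-voom gave 0.09.

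Shld2 encodes the shieldin subunit with the OB folds that bind single-stranded DNA. It had 106 and 13 counts (7.99 and 0.688 CPM) under the label Rif1_KO, against 26 and 48 counts (2.40 and 5.16 CPM) under the label WT. Here the spread was within the label Rif1_KO, 11.6-fold, and the WT libraries lay between. That difference of 2.41 on the log2(CPM + 1) scale was larger than for 95.6% of tested genes, beside a median of 0.66. Its log2 fold change was 0.20 (SE 1.51) by edgeR (adjusted p = 0.989), -2.35 without Rif1_KO replicate 1 and 1.10 without Rif1_KO replicate 2; limma-voom gave -0.53. The libraries did not order Shld1 and Shld2 alike. Per length, Shld1 exceeded Shld2 3.90-fold and 25.6-fold under the label Rif1_KO and 69.7-fold in WT replicate 1, and was 0.451 times Shld2 in WT replicate 2. Relative to Mad2l2 per length, Shld2 was at 0.195 and 0.00971 under the label Rif1_KO, and at 0.0428 and 0.0943 under the label WT. The remaining shieldin gene, Shld3, was looked for, but no gene was found under that symbol, so it has no value here. Shld1 shares 48 of 2117 exonic bases with Gm14097, which had 4 counts or fewer in each library, and Shld2 shares none.

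Brca1 encodes the ubiquitin ligase subunit that counters 53BP1, RIF1 and shieldin in S and G2 phase. It had 329 and 357 counts (24.8 and 18.9 CPM) under the label Rif1_KO, against 114 and 16 counts (10.5 and 1.72 CPM) under the label WT. Both libraries labelled Rif1_KO were above both labelled WT, and WT replicate 2 was again the lowest. Its log2 fold change was 1.83 (SE 1.34), higher in 2 of 2 libraries, and was not called by edgeR (adjusted p = 0.766). It was 3.66 without WT replicate 1 (edgeR adjusted p = 0.0844) and 1.06 without WT replicate 2.

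Rif1 and Brca1 had like profiles. Within a library the ratio of Rif1 to Brca1 per length was 2.83 and 2.75 under the label Rif1_KO, and 3.38 and 2.23 under the label WT. The ratio of Rif1 to Trp53bp1 was 1.90 and 1.82 under the label Rif1_KO, against 1.52 and 0.241 under the label WT. For Brca1 to Trp53bp1 it was 0.672 and 0.664 under the label Rif1_KO, against 0.448 and 0.108 under the label WT. These ratios need no scaling between libraries, and they place the low Rif1 and Brca1 values of WT replicate 2 beside a Trp53bp1 value that stood closer to those of the other libraries. The Trp53bp1 count can include Tubgcp4 reads, and the ratios to Trp53bp1 without them were not tested. Likeness to Rif1 was also measured as the root mean square distance between centred log2(CPM + 1) profiles over the 4 libraries, a description with no test that rests largely on that 1 low library. Brca1 was at a distance of 0.331, and 0.682% of genes with a mean of at least 5 CPM were nearer to Rif1. Trp53bp1 was next at 1.14, with 16.99% of genes nearer. The others ran from 1.31 for Ppp1cc, with 24.7% of genes nearer, to 1.96 for Shld2, with 68.7% nearer. The 5 nearest genes outside the members were Gm26771 (0.082), Dyx1c1 (0.091), Mgat2 (0.101), Sgce (0.117) and Kin (0.131). Mgat2 encodes a Golgi enzyme of N-glycan synthesis, Sgce the imprinted epsilon-sarcoglycan, and Kin a zinc finger protein that binds DNA. Sgce, for example, had 138 and 106 CPM under the label Rif1_KO, against 75.2 and 10.3 CPM under the label WT.

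**Figure D3:**
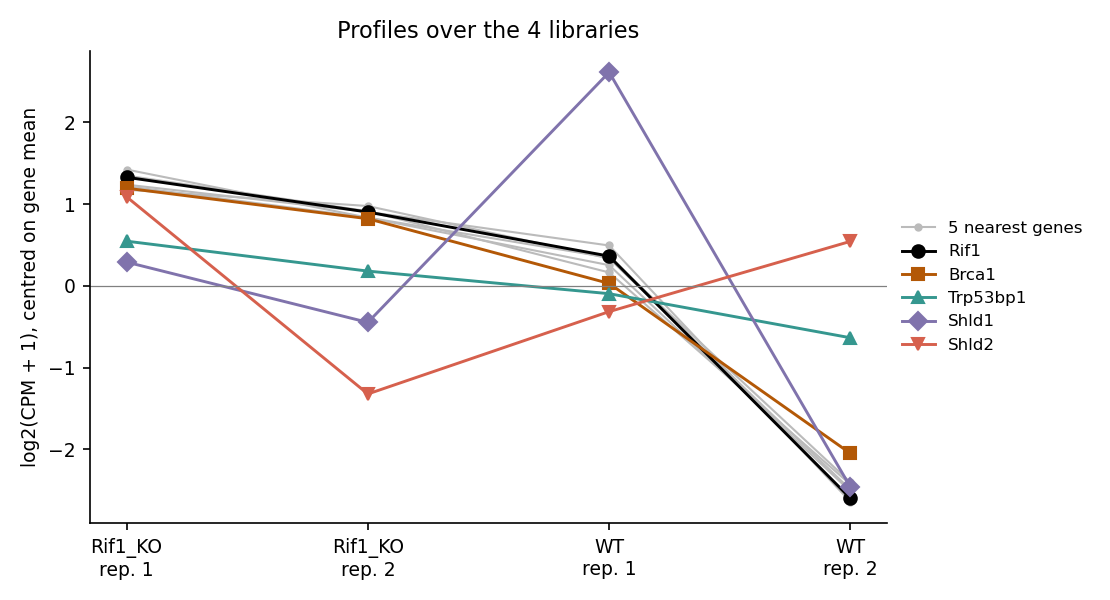
Centred log2(CPM + 1) of Rif1, Brca1, Trp53bp1, Shld1 and Shld2 and of the 5 genes nearest to Rif1, across the 4 libraries; lines join the values of a gene and imply no order of libraries. Brca1 runs close to Rif1 (distance 0.331), while Shld1 peaks in WT replicate 1 and Shld2 is lowest in Rif1_KO replicate 2.

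None of the 10 genes passed the test over all genes. edgeR's quasi-likelihood test called 0 of 10 at an adjusted p under 0.05, where it called 0.0129% of all tested genes (2 of 15466). At an unadjusted p under 0.05 it gave 0 of 10, where all genes gave 5.35% higher and 3.05% lower. DESeq2 called 0 of 10, where it called 2.31% higher and 1.35% lower under the label Rif1_KO of the 14266 genes with an adjusted p. Limma-voom called 0 of 10, where it called 2 of the 15466 tested genes. The CPM values of both labels did not overlap for 3 members, all higher under the label Rif1_KO (Rif1, Trp53bp1, Brca1), beside 21.0% of all tested genes higher and 18.4% lower in that sense. With 10 genes, 3 is near that background. Fitted values were above 0 for 7 of 10 members with TMM factors, 6 with RLE factors and 9 with upper-quartile factors. The median log2 fold change of the members was 0.18, beside -0.11 for all tested genes. The median of all tested genes was -0.20 with RLE and 0.16 with upper-quartile factors. Without WT replicate 1 the test called 1 member (Rif1, higher), and without WT replicate 2 it called 1 (Shld1, lower), while calls over all genes were 871 (5.63%) and 545 (3.52%) in those fits.

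**Figure D4:**
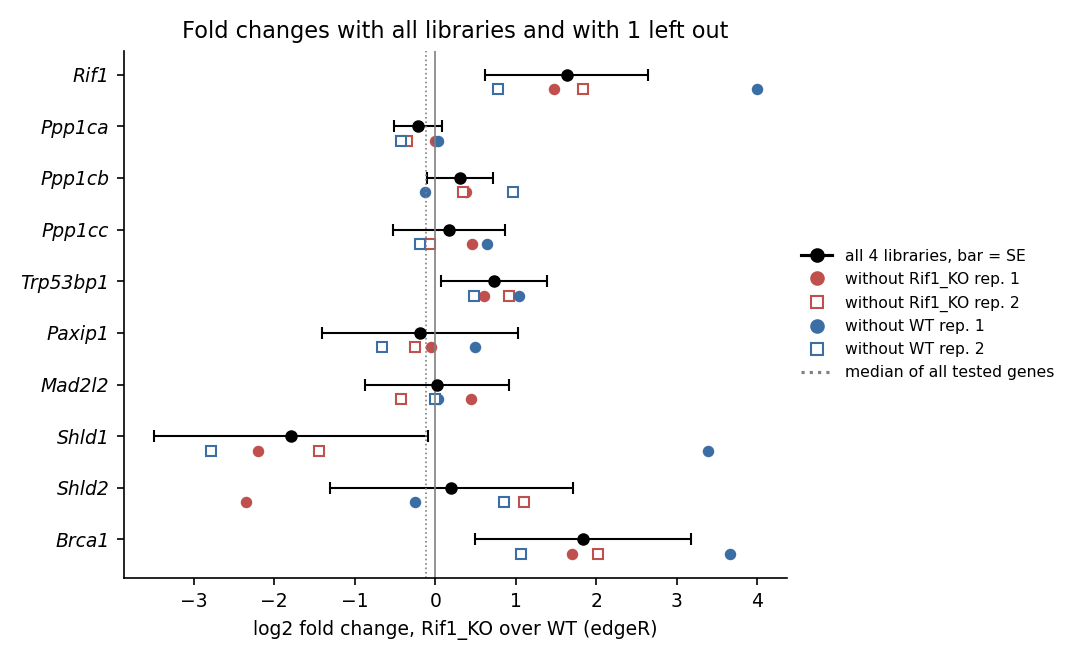
Log2 fold change of each gene, Rif1_KO over WT, from edgeR with all 4 libraries (black, bars are SE) and, below each, with 1 library left out. The dotted line is the median of all tested genes (-0.11); Rif1 moves from 1.63 to 3.99, and Shld1 from -1.79 to 3.38, when WT replicate 1 is left out.

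Per length, the order of the genes was only partly the same under both labels. Under the label Rif1_KO it ran Ppp1ca, Ppp1cb, Ppp1cc, Mad2l2, Rif1, Shld1, Trp53bp1, Brca1, Paxip1 and Shld2. Rif1 averaged 7.15 ± 1.50 CPM per kb there and 2.30 ± 2.62 under the label WT (SD, n = 2 each). The ranges of neighbours overlapped between Ppp1cc and Mad2l2, Mad2l2 and Rif1, Shld1 and Trp53bp1, and Paxip1 and Shld2. Under the label WT, Shld1 came after Ppp1ca and Ppp1cb, at 14.8 ± 20.3 CPM per kb, and only the steps from Ppp1ca to Ppp1cb and from Mad2l2 to Trp53bp1 were free of overlap between neighbours. Brca1 averaged 2.56 ± 0.487 under the label Rif1_KO and 0.716 ± 0.728 under the label WT (SD, n = 2 each).

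Genes around these proteins were read in 8 lists, 107 tested genes without the members. edgeR called 0 of the 107 over all genes, beside 0.0129% of all tested genes. DESeq2 called 0, beside 2.31% higher and 1.35% lower of the 14266 genes to which it gave an adjusted p. Ppp1r3c and L3mbtl1 had no adjusted p from DESeq2, so it could not call them. With an unadjusted p under 0.05 edgeR gave 1 higher (0.935%) and 3 lower (2.80%), beside 5.35% and 3.05% of all tested genes. Values of the labels did not overlap for 28 genes higher (26.2%) and 20 lower (18.7%) under the label Rif1_KO, beside 21.0% and 18.4% of all tested genes. The median log2 fold change was 0.14. Without WT replicate 1 the edgeR test called 11 of them (10.3%), beside 5.63% of all tested genes, and without WT replicate 2 it called 5 (4.67%), beside 3.52%. Without either of the Rif1_KO libraries in turn it called 0, beside 0.0323% and 0.0388%.

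Of the 53BP1 recruitment and chromatin signalling genes 16 were tested, with a median of -0.67 and 12 values below 0. The smallest p was that of Kmt5a, which encodes the H4K20 monomethyltransferase whose mark 53BP1 reads once dimethylated. It had 15.2 and 17.4 CPM under the label Rif1_KO, against 95.4 and 70.3 CPM under the label WT, with a fold change of -2.35 on the log2 scale (SE 0.62, edgeR adjusted p = 0.571). Kdm4a, for a demethylase whose Tudor domains also bind methylated H4K20, had 0.753 and 0.636 CPM under Rif1_KO against 2.40 and 4.41 CPM under WT. Both were lower in 2 of 2 libraries labelled Rif1_KO.

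Shieldin effectors had a median of 0.45 over 11 tested genes, with 8 above 0. Prim1, the catalytic primase subunit that works with CST and polymerase alpha in end fill-in, had 31.7 and 71.8 CPM under the label Rif1_KO, against 26.3 and 16.6 CPM under the label WT. Dynll1, a dynein light chain that limits MRE11 and binds 53BP1, had 300 and 259 CPM under Rif1_KO against 156 and 243 CPM under WT. For partners of REV7 in translesion synthesis and checkpoint control the median was -0.70 over 8 tested genes, 7 of them below 0. Pogz, for a zinc finger protein that binds REV7, had 2.71 and 14.0 CPM under the label Rif1_KO, against 48.2 and 31.7 CPM under the label WT, and Pold2, a subunit shared by polymerases delta and zeta, had 31.0 and 5.40 CPM under Rif1_KO against 76.8 and 32.0 CPM under WT.

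For BRCA1 complexes and end resection the median was 0.51 over 21 tested genes, 13 of them above 0. The nuclease gene Mre11a had 11.3 and 7.42 CPM (150 and 140 counts) under the label Rif1_KO, against 1.20 and 1.83 CPM (13 and 17 counts) under the label WT, with a log2 fold change of 2.62 (SE 1.34, edgeR adjusted p = 0.650). Brcc3, the deubiquitinase of the BRCA1-A complex, had 150 and 137 CPM under Rif1_KO against 95.7 and 82.6 CPM under WT. Bard1, whose product pairs with BRCA1, is added after its values were seen. It had 0.0754 and 1.06 CPM (1 and 20 counts) under the label Rif1_KO, against 0.461 and 8.38 CPM (5 and 78 counts) under the label WT. Bard1 was highest in the library where Brca1 was lowest.

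PP1 regulatory subunits had a median of 0.44 over 15 tested genes, with 9 above 0. Ppp1r3c, a glycogen-targeting subunit, had 1.73 and 1.48 CPM under the label Rif1_KO, against 0.276 and 0.108 CPM under the label WT. Its counts were 23 and 28 under the label Rif1_KO, and only 3 and 1 under the label WT. Ppp1r8, the nuclear subunit NIPP1, had 5.80 and 10.3 CPM under Rif1_KO against 27.1 and 63.5 CPM under WT, with a fold change of -2.49 on the log2 scale (SE 0.98, edgeR adjusted p = 0.577).

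Replication genes, listed with those of the DDK kinase that PP1 opposes, had a median of 0.40 over 13 tested genes, 10 of them above 0. Mtbp, a partner of the origin firing factor Ticrr, had 10.2 and 7.42 CPM under the label Rif1_KO, against 0.553 and 1.29 CPM under the label WT. The helicase component Cdc45 had 13.6 and 25.1 CPM under Rif1_KO against 6.45 and 1.72 CPM under WT. Heterochromatin and lamina genes had a median of 0.38 over 14 tested genes. Among them Uhrf1, for a reader of hemimethylated DNA, had 16.6 and 38.9 CPM under the label Rif1_KO, against 3.87 and 6.45 CPM under the label WT, and the H3K9 methyltransferase gene Suv39h1 had 7.31 and 10.9 CPM under Rif1_KO against 40.2 and 30.7 CPM under WT. Telomere genes had a median of 0.14 over 9 tested genes. Daxx, for the histone H3.3 chaperone that works with ATRX, had 6.86 and 7.04 CPM under the label Rif1_KO, against 1.20 and 0.967 CPM under the label WT. The shelterin gene Pot1a had 9.57 and 9.27 CPM under Rif1_KO against 2.30 and 0.215 CPM under WT, where its values rest on 25 and 2 counts. The genes named by smallest p, a pair from each list, had values without overlap between the labels, which picking by p favours. Of all tested genes, 21.0% were higher and 18.4% lower without overlap. None of these pairs was called by edgeR.

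**Figure D5:**
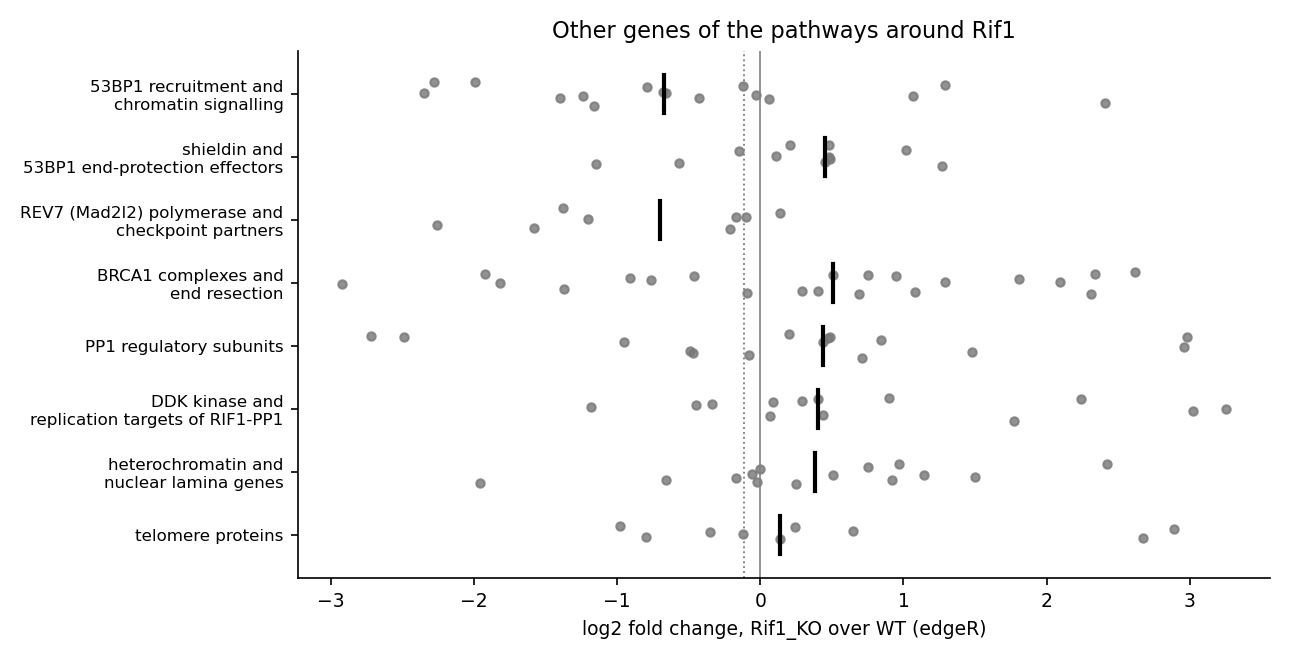
Log2 fold change, Rif1_KO over WT, of every tested gene in the 8 lists (points, spread vertically at random). Black bars are list medians, from -0.70 to 0.51, and the dotted line is the median of all tested genes (-0.11); points of every list lie on both sides of 0.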

How the data were processed

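The deposited counts are whole numbers per gene, 1 column per library, with no normalization; per the file headers they were made with featureCounts 1.6.2 on GENCODE M17, counting read pairs with a mapping quality of at least 30, including multi-mapping reads, for every gene they overlap and with no strand option. The submitters' processing notes name Trim Galore, FastQC, HISAT2, SAMtools and mm10. Genes were named by Ensembl identifier, with 95 left unnamed; H2ax was read as H2afx.

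Genes were kept with filterByExpr (minimum count 10) and tested on the counts with edgeR 4.0.16 in R 4.3.3 (quasi-likelihood, robust, TMM factors 1.107 and 1.319 for Rif1_KO, 0.856 and 0.800 for WT), with Benjamini-Hochberg adjustment over 15466 genes at 0.05. SE is the log2 fold change over the square root of F. DESeq2 1.42.0 and limma-voom (limma 3.58.1) were alternatives. Replicates differed by more than sampling noise (chi-square per degree of freedom 43.6 for Rif1_KO and 50.8 for WT). The edgeR, DESeq2 and limma-voom fits with all libraries were also run on simulated counts with known changes. No other setting or step was tested in this way. How large a change these fits can detect with 2 libraries per label is not reported here, so a lack of calls does not show a lack of change. With 2 libraries against 2 an exact permutation test cannot go below p = 0.333, so ratios and shares were not tested. Members and lists were chosen with earlier results of these data known. Named beyond the members are the 2 genes of each list with the smallest p and the 5 genes nearest to Rif1; Bard1, Rad9a, Tubgcp4, Ppp1ccb and the marker genes were added as context.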

Additional observations from a re-analysis of the deposited data

How the results depend on the processing

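The count of called genes depended on the setting: 2 by edgeR with all libraries, 0 with upper-quartile factors, 0 without haemoglobin, rRNA-region and mitochondrial counts (the 2 called genes are haemoglobins), 6 with at least 10 counts in every library, 54 without the filter on low counts, 521 by DESeq2, and 5 to 871 with 1 library left out. The cause was not tested. Fits with 1 left out assume that the remaining library of a label has the scatter of the other pair. Members called were 0 in all settings with 4 libraries and 0 to 1 with 1 left out, and genes of the 8 lists 0 to 11 with 1 left out. The log2 fold change of Rif1 was 1.55 to 2.35 over the other settings and 0.78 to 3.99 with 1 library left out.

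Of 119 alternative values of members, 96 kept direction and side of the threshold and 21 changed sign, all of them without a call. Upper-quartile factors gave 0.06 for Ppp1ca and 0.08 for Paxip1, and no filter gave 0.08 for each. Mad2l2 was -0.07 with RLE factors and with DESeq2, Shld1 0.09 and Shld2 -0.53 with limma-voom. With 1 library left out the ranges were -0.42 to 0.03 for Ppp1ca, -0.13 to 0.96 for Ppp1cb, -0.19 to 0.64 for Ppp1cc, -0.66 to 0.50 for Paxip1, -0.42 to 0.44 for Mad2l2, -2.78 to 3.38 for Shld1 and -2.35 to 1.10 for Shld2. Shld1 has no value with at least 10 counts in every library. With the replicate number as a block edgeR called 7 genes and 0 members, Rif1 was 2.35 and Mad2l2 -0.04, Shld1 0.17 and Shld2 -0.55 changed sign; the labels do not say that the numbers pair libraries, and same-numbered libraries did not deviate together (correlation -0.03).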

Other observations

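Markers of dividing cells differed among themselves across the libraries. All 8 together had 597 and 593 CPM under the label Rif1_KO, against 401 and 598 CPM under the label WT. Mki67, for a proliferation antigen that binds PP1, had 35.0 and 34.2 CPM under the label Rif1_KO, against 58.4 and 1.72 CPM under the label WT. Like Rif1 and Brca1 it was lowest in WT replicate 2. So was the licensing gene Mcm5, with 54.8 and 61.9 CPM under the label Rif1_KO, against 58.4 and 14.8 CPM under the label WT. Of the 8 markers, 3 were highest in WT replicate 2. Another licensing gene, Mcm3, was among them, with 57.9 and 64.2 CPM under the label Rif1_KO, against 22.9 and 129 CPM under the label WT. So was the mitotic cyclin gene Ccnb1, with 37.4 and 93.8 CPM under the label Rif1_KO, against 13.2 and 208 CPM under the label WT. Aurkb, for the mitotic kinase that PP1 opposes, had 15.7 and 23.2 CPM under the label Rif1_KO, against 0.0921 and 0.430 CPM under the label WT, values that rest on 1 count and 4 counts. These genes were singled out after their values were seen.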
